A study of Homo sapiens with 59 samples.

Results

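The collagen genes are those that code for the alpha chains of collagen, with symbols such as COL4A1, where the first number is the collagen type and the second the chain. They were chosen by the form of the symbol alone, without any measured value, and 43 of the 19084 gene symbols in the expression table had that form. Their levels were followed in neural stem cells made from WA09 (also called H9), an established line of human embryonic stem cells. In every culture FGF8b (200 ng per mL) came first. CHIR99021, which blocks the kinase GSK3 and so switches on the WNT pathway through beta-catenin, followed over 2 to 72 h. The last 4 days before RNA was taken were in medium with retinoic acid. The 20 groups differ in the hours of CHIR99021, at 2 h steps up to 24 h and at 6 h steps from there to 72 h. Each had 3 libraries with the labels A1, A2 and B1, except 48 h with 2, giving 59 libraries of bulk RNA. All groups come from 1 cell line, a longer exposure was also a longer culture, and cells without CHIR99021 were not analysed here. The labels do not say whether the libraries of a time point came from separate cultures, so the p-values rest on a spread among libraries that may be only technical.

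Collagen chains wind into triple helices, either from identical chains or from fixed combinations of different ones, and the type of chain decides what is built. Fibrillar collagens form the cables of connective tissue, network collagens of type IV form the sheet of basement membranes, and fibril-associated collagens sit on the surface of fibrils. The neural tube rests on a basement membrane rich in type IV collagen, and fibrillar chains are best known from bone, cartilage, skin and mesenchyme.

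Levels are given in TPM, the abundance of a gene's transcripts divided by their length and scaled to a fixed total, so that different chains can be compared. The read depth behind a TPM value is unknown. The number of genes at 1 TPM or more was 11004 to 13085 in 56 libraries and under 10000 in the other 3, which were 4 h B1, 42 h B1 and 72 h A2. For several results that rest on those 3, values without them are also given. Of 8 neural progenitor markers, 0 were at 0 in every library of a window described next, but their levels differed. PAX6 was at a median of 192 TPM early and 146 TPM late, and SOX3, NES, VIM and CDH2 had early medians of at least 79.9 TPM. SOX1 and HES5 were at early medians of 0.72 and 4.665 TPM, each at 0 in 3 of 12 libraries, and at 18.4 and 36.3 TPM late. SOX2 was at 33.6 TPM early, with 1 library at 0, and 134 TPM late. Differences are given as log2(TPM + 1), a scale on which changes of low genes come out too small, and p-values are from limma, adjusted by Benjamini-Hochberg over the 15305 genes that reached 1 TPM in at least 3 libraries.

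Of the 43 collagen genes, 35 passed that filter and 17 were at 1 TPM or more in every library. Mean TPM over the 59 libraries was at least 100 for 7 genes, 10 to 100 for 13, 1 to 10 for 9 and under 1 for 14. The most abundant were COL1A2 (479 TPM), a fibrillar chain, and COL18A1 (477 TPM), a basement membrane collagen. Next came the type IV chains COL4A1 (335.5 TPM), COL4A2 (275 TPM) and COL4A5 (163 TPM) and the fibrillar chains COL11A1 (156 TPM) and COL2A1 (145 TPM). COL1A1, the partner of COL1A2 in type I collagen, was at 79.9 TPM. The 8 genes below the filter were COL4A3, COL6A5, COL6A6, COL8A2, COL10A1, COL15A1, COL19A1 and COL20A1, and no library had more than 1.81 TPM of any of them. COL10A1, the collagen of growth plate cartilage, was listed at 0 in all 59 libraries.

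Over the whole course, fitted as a smooth curve in hours (natural spline with 4 degrees of freedom), 29 of the 35 tested collagen genes changed, against 36.8% of all genes tested. For the direction, 3 windows of 12 libraries each were compared: early (2, 4, 6 and 8 h), first day (18, 20, 22 and 24 h) and late (54, 60, 66 and 72 h). From early to late, 21 of 35 changed, against 30.1% of all genes tested: 10 rose (14.3% of all genes) and 11 fell (15.8% of all genes). The median difference was 0.12 for the collagen genes and -0.04 for all genes tested. By class, 7 of 11 fibrillar genes rose, among them COL3A1, which passed the filter only through libraries after the early window, and COL11A2 fell. In the basement membrane class 4 of 5 fell, among them COL4A4, which passed the filter only through early libraries, and COL4A6 rose. Of the fibril-associated genes, 5 of 8 fell. The smaller classes gave COL6A1 and COL23A1 among those that rose and COL18A1 among those that fell. For 54 h against 6 h alone, with 3 libraries each, 9 of 35 passed, against 6.95% of all genes tested. Of these 9, 3 were higher (COL2A1, COL5A2 and COL11A1) and 6 lower (COL4A1, COL4A2, COL11A2, COL14A1, COL16A1 and COL18A1).

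**Figure D1:**
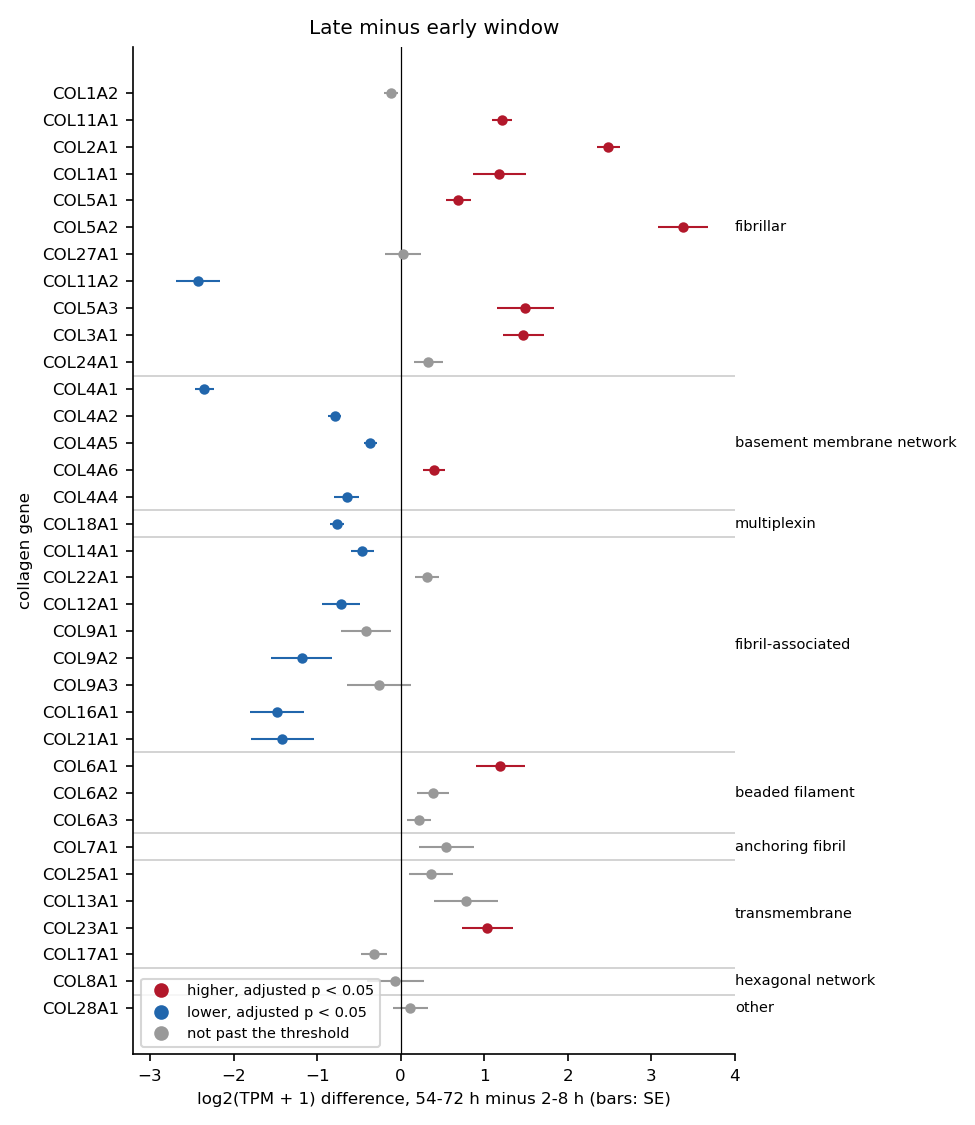
Difference between the late (54 to 72 h) and early (2 to 8 h) windows on the log2(TPM + 1) scale for the 35 collagen genes tested, with the gene on the y axis, grouped by class; points are the limma estimate and bars its SE, from 12 libraries per window. Fibrillar genes lie mostly to the right, with COL5A2 at 3.38 and COL11A2 at -2.43, and COL4A1 lies at -2.35.

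As a share of all collagen TPM, the type IV chains were at 41.6% ± 3.0 in the early window, 30.3% ± 2.5 in the first-day window and 22.0% ± 2.7 in the late window (SD, n = 12 each). The fibrillar chains went from 25.8% ± 2.1 to 43.1% ± 3.4 and 51.4% ± 4.8. No early library had a fibrillar share above 29.3% and no late library one below 45.6%. The sum over all 43 genes was 2995 ± 275, 2550 ± 418 and 2610 ± 382 TPM in the 3 windows, so that the makeup moved more than the total. These shares are descriptions and were not tested. In bulk RNA, fewer cells of a type and less RNA per cell cannot be told apart.

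COL4A1 and COL4A2 code for the chains of the type IV collagen found in nearly all basement membranes. In the 12 early libraries COL4A1 was at 402 TPM at the lowest, 648 TPM at the median and 759 TPM at the highest. In the first-day window the values were 154, 269 and 520.4 TPM, and in the late window 87.9, 124 and 146 TPM. The 3 windows hardly share values: every late library was below every first-day and every early library, and the first-day range reached into the early one. The late minus early difference was -2.35 (SE 0.12, adjusted p = 5.5e-21), made of a fall by 1.15 in the first day (adjusted p = 1.6e-10) and by 1.197 after it (adjusted p = 6.7e-11). COL4A2 fell less. It was at 283, 369.6 and 409.9 TPM (lowest, median, highest) early, 189, 263 and 369 TPM in the first day and 143, 211.5 and 249.99 TPM late. No late library of COL4A2 reached the lowest early one, and the late minus early difference was -0.79 (SE 0.08, adjusted p = 2.6e-11). The later part of the COL4A2 fall, -0.39 from the first day to late, was not called without the A2 libraries (adjusted p = 0.083).

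COL4A1 and COL4A2 start on opposite strands of chromosome 13, with 126 bases between the start sites that RefSeq gives on GRCh38.p14. They moved together over the 20 time points (Pearson's r = 0.95, a description, since both share the same libraries), and yet their ratio turned over. COL4A1 was at 2.02 times COL4A2 at 2 h and at 0.61 times COL4A2 at 72 h, and the ratio went from 1.31 at 18 h to 0.92 at 20 h. The log2 ratio fell by 1.56 from the early to the late window (SE 0.084, n = 12 each), with no overlap between libraries. A 2-sided permutation test with 100000 resamples gave an adjusted p of 3.6e-05 over the 9 chain pairs compared, from 2e-05, the smallest these resamples can give. The test shuffled the libraries of the 2 windows freely, without regard to time points. Libraries of the same time thus counted as independent, and the permutation p-values are too small where they are not.

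COL4A5 and COL4A6 form another type IV network, in the basement membranes of certain epithelia and smooth muscle, and are likewise neighbours on opposite strands, on chromosome X. RefSeq start sites on GRCh38.p14 lie 379 bases apart for the COL4A6 start nearest to COL4A5. The 250 bases before the COL4A5 start, within that stretch at chrX:108439588-108439837 on the plus strand, are shown because the ratio of these neighbours changed over the course. Matches on either strand to CCAAT or to GGGCGG, the core of the GC box, are in capitals, and none of them overlap.
COL4A5 upstream: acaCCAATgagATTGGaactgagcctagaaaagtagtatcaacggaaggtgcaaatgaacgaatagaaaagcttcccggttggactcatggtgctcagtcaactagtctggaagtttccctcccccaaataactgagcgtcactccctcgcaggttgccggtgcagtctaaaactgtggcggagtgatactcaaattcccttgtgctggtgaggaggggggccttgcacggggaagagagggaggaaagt
It holds 2 matches to CCAAT and 0 to GGGCGG. In the 126 bases between COL4A1 and COL4A2 there is 1 match each to CCAAT and GGGCGG. Of all 35116 RefSeq windows of 300 bases around a start site, 34.6% hold CCAAT on either strand, 45.0% hold GGGCGG and 11.5% hold TATAAA, the core of the TATA box. RefSeq windows were at hand for 31 of the 43 collagen genes, 43 windows in all, of which 32.6%, 55.8% and 18.6% hold these motifs.

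COL4A5 was at 146, 185 and 245 TPM (lowest, median, highest) early and at 109, 145 and 185 TPM late. These ranges overlap, and the fall was small (-0.36, SE 0.08, adjusted p = 1.8e-04). COL4A6 was U-shaped: its 2 h libraries had 100.9, 109 and 117 TPM, its 12 h libraries 40.6, 47.4 and 44.4 TPM and its 72 h libraries 118, 75.6 and 121 TPM. From the first day to late it rose by 0.94 (SE 0.13, adjusted p = 5.4e-07), with no overlap between the windows. Its late minus early difference of 0.40 (adjusted p = 0.016) was not called without any 1 replicate label (adjusted p = 0.0576 to 0.0883), and was -0.01 for 66 and 72 h against 2 and 4 h. The ratio of COL4A5 to COL4A6 was 2.47 early, 3.33 in the first day and 1.56 late, and late libraries did not overlap early ones (adjusted permutation p = 3.6e-05). COL4A3 and COL4A4, the chains that join COL4A5 in kidney, lung and the inner ear, were scarce. COL4A4 was highest at 2 h, with a mean of 1.197 TPM, and was listed at 0 in 11 of 12 late libraries (-0.64, adjusted p = 7.6e-04). It reached 1 TPM in 3 libraries, all early: 2.49 TPM in 2 h A1, 1.02 TPM in 2 h A2 and 1.37 TPM in 4 h A1. COL4A4 thus entered the test only through the window where it was high, which favours the call of a fall. Without the filter the 21 collagen calls from early to late were all kept. COL4A3 was below the filter.

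COL18A1, whose chain carries heparan sulphate in basement membranes and releases endostatin when cut, was at 508, 678 and 794 TPM (lowest, median, highest) early. It was at 294.5, 377 and 571 TPM in the first day and at 272, 419 and 459.8 TPM late. The fall of 0.77 was complete in the first day (SE 0.08, adjusted p = 9.5e-10), with a difference of 0.01 from there to late. All late libraries were below all early ones. In all, 4 collagen genes were lower without overlap in the late window (COL4A1, COL4A2, COL11A2 and COL18A1), against 1.17% of all genes tested, and 3 were higher without overlap (COL2A1, COL5A2 and COL11A1), against 1.06%.

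Other basement membrane genes were given by a list of matrix partners. AGRN, which codes for the heparan sulphate proteoglycan agrin, fell by 0.91 (adjusted p = 7.8e-10), and HSPG2, which codes for perlecan, fell by 0.91 (adjusted p = 2.7e-06). NID1, the linker nidogen between laminin and type IV collagen, fell by 0.46 (adjusted p = 0.00387). The other nidogen gene, NID2, did not pass the threshold (0.34, adjusted p = 0.327), with medians of 14.1 TPM early and 17.0 TPM late. Beside these falls, 7 of 7 epithelial markers fell, CDH1 and EPCAM among them, against 15.8% of all genes tested. Their summed level went from 1150 to 3253 TPM (median 1836) early to 447 to 757 TPM (median 509) late, with CLDN7 and ESRP1 at 0 in the whole late window. The part of these markers in the collagen results was not tested.

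**Figure D2:**
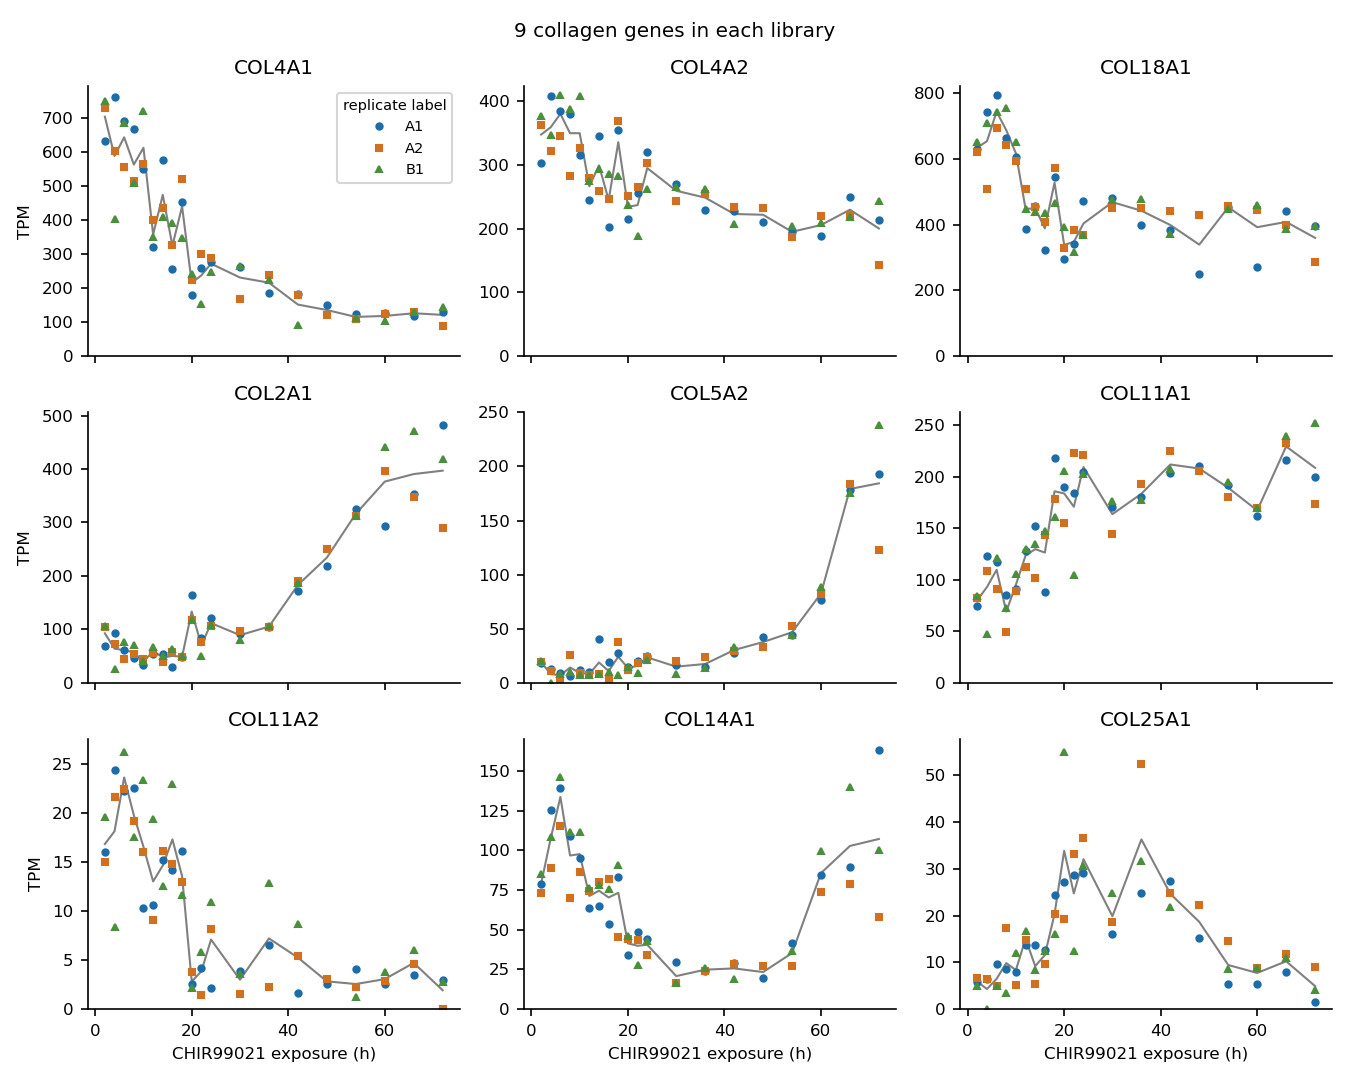
TPM on the y axis against hours of CHIR99021 for 9 collagen genes, with 1 point per library, the marker showing its replicate label, and a line through the time-point means (3 libraries, 2 at 48 h). COL4A1 falls from a mean of 703 TPM at 2 h to 116 TPM at 54 h, COL5A2 reaches 184 TPM at 72 h, and COL25A1 has its highest library, at 55.1 TPM, at 20 h.

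Among the fibrillar chains, COL2A1, the chain of type II collagen in cartilage, notochord and early neuroepithelium, was at 26.2, 68.9 and 106 TPM (lowest, median, highest) early. In the first day it was at 48.1, 94.3 and 164 TPM. Late it was at 289.5, 350.2 and 483 TPM, above every early and first-day library. The late minus early difference was 2.49 (SE 0.14, adjusted p = 2.6e-19) and nearly all of it came after the first day (2.11, adjusted p = 2.9e-16). The first-day difference of 0.37 (adjusted p = 0.0488) was at the threshold and was not called without the 3 libraries with fewest genes (adjusted p = 0.105). Of the cartilage and notochord markers, 5 of 7 were tested and SOX9, a regulator of COL2A1 in cartilage, rose (2.47, adjusted p = 1.7e-08), from a median of 2.51 to 21.8 TPM. ACAN, which codes for the cartilage proteoglycan aggrecan, was at a median of 1.67 TPM early and 0.60 TPM late. The list's sum was 1.77 to 24.1 TPM early and 8.40 to 49.7 TPM late, with 2 of the 7 at 0 in each of these windows. The part of these markers was not tested.

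COL5A2, a chain of type V collagen, which starts and limits the width of collagen fibrils, was at 0, 10.6 and 25.5 TPM (lowest, median, highest) early and at 43.8, 105 and 238 TPM late. At 54 h its libraries had 44.1, 52.0 and 43.8 TPM, at 60 h 76.8, 82.5 and 88.1 TPM and at 66 h 178.5, 184 and 175 TPM. The late libraries were above all earlier windows, and the late minus early difference of 3.38 (SE 0.30, adjusted p = 1.3e-12) was the largest rise among the 35 genes tested. COL5A2, COL6A1 and COL25A1 were at 0 in 1 library, 4 h B1, and without the 3 libraries with fewest genes the COL5A2 difference was 3.14. Its partner COL5A1 was at 25.1, 34.0 and 83.0 TPM early and 48.7, 60.6 and 92.1 TPM late. It rose by 0.69 (SE 0.15, adjusted p = 3.5e-04), or by 0.77 without the 3 libraries with fewest genes. Those include its highest early library, 4 h B1. The ratio of COL5A1 to COL5A2 changed from 3.27 early to 0.50 late, with no overlap between libraries (adjusted permutation p = 3.6e-05). COL5A3, a further type V chain, rose from a median of 1.21 to 5.20 TPM (1.49, adjusted p = 6.5e-04), and was at 0 in 72 h A2. Without the 3 libraries with fewest genes its difference was 1.70.

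COL11A1 and COL11A2 code for chains of type XI collagen, which nucleates type II fibrils. COL11A1 has 1 start in RefSeq, and the 250 bases before it (chr1:103108523-103108772, GRCh38.p14, minus strand) are shown, with matches to the same motifs in capitals, because it rose while its partner chain fell.
COL11A1 upstream: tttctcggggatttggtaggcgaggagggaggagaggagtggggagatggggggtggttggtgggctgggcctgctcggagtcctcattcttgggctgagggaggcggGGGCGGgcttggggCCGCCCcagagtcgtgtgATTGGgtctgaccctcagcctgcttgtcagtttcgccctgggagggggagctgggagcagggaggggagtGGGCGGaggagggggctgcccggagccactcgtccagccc
It holds 3 matches to GGGCGG and 1 to CCAAT. A match describes the letters only, and the binding of any factor was not measured.

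COL11A1 was at 47.4, 84.4 and 122.5 TPM (lowest, median, highest) early, 105, 196 and 223 TPM in the first day and 162, 194 and 252 TPM late. It rose in the first day by 1.12 (SE 0.12, adjusted p = 2.9e-10), and the late window was 0.10 above the first day (adjusted p = 0.693). COL11A2 went the other way. It was at 8.37, 20.7 and 26.3 TPM early and at 0, 2.91 and 6.07 TPM late, without overlap (-2.43, SE 0.26, adjusted p = 3.3e-10). At 18 h the COL11A2 libraries had 16.1, 12.99 and 11.6 TPM and at 20 h 2.53, 3.77 and 2.16 TPM, and at 24 h 2.12, 8.23 and 10.96 TPM, so that the drop after 18 h was partly regained in some libraries. The further fall from the first day to late (-0.79, adjusted p = 0.038) was not called under several other settings, among them without the libraries of any 1 replicate label (adjusted p = 0.11 to 0.328). COL11A1 was at 4.48 times COL11A2 early, 27.4 times in the first day and 64.8 times late. Against COL2A1, with which type XI chains assemble, COL11A1 went from 1.28 to 0.54 times (adjusted permutation p = 3.6e-05 for both pairs).

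COL1A2 and COL1A1 make up type I collagen, whose usual trimer holds more A1 than A2 chains. Here COL1A1 was below COL1A2 in 59 of 59 libraries. The ratio of COL1A1 to COL1A2 was 0.12 early, 0.15 in the first day and 0.27 late (adjusted permutation p = 3.9e-04), with overlap between the early and late libraries. COL1A2 had no late minus early change past the threshold (-0.11, adjusted p = 0.309), but rose by 0.42 in the first day (SE 0.08, adjusted p = 1.1e-04) and fell by 0.53 after it (adjusted p = 2.4e-06). Its level went up and down between neighbouring times, while the libraries of most times lay close together. At 12 h its libraries had 273, 269 and 269.8 TPM, at 24 h 757, 700.2 and 642 TPM and at 36 h 427, 432 and 429 TPM. At 48 h the 2 libraries had 812 and 702 TPM, at 60 h the 3 libraries had 283, 288 and 309 TPM and at 72 h 664, 466 and 712 TPM. A test of the 20 time-point means against the smooth curve, added after the values were seen, called COL1A2 (adjusted p = 1.3e-06), COL2A1 (0.00975) and COL18A1 (0.0119), 3 of 35 against 12.3% of all genes tested. With other curves and library sets the count was 1 to 7, against 2.26% to 24.3% of all genes tested. COL1A2 was not called for change over the course with 3 degrees of freedom (adjusted p = 0.507).

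COL1A1 differed between libraries of the same time. At 12 h its 3 libraries had 18.9, 25.9 and 18.3 TPM. At 14 h they had 207, 16.2 and 10.1 TPM, at 16 h 88.1, 11.2 and 11.3 TPM and at 18 h 137, 271 and 56.6 TPM, in the order A1, A2 and B1. The high libraries were thus A1 at 14 and 16 h and A2 at 18 h, and at 8 h A2 (149.8 TPM, against 47.3 and 51.0 TPM). In those libraries TNC, which codes for the matrix protein tenascin-C, was also high: 66.3 TPM in 14 h A1 against 5.74 and 2.81 TPM, and 76.5 TPM in 18 h A2 against 43.7 and 7.25 TPM. TAGLN, a smooth muscle marker, was at 442 TPM in 14 h A1 against 84.8 and 62.0 TPM. Over the 59 libraries, after the mean of each time point was taken away, Pearson's r of COL1A1 was 0.91 with TNC, 0.83 with TAGLN, 0.73 with FN1, which codes for fibronectin, 0.67 with the endothelial marker CDH5 and 0.62 with each of COL5A1 and COL12A1. These are descriptions of values that share libraries, and the genes were picked for their high r among the collagen, partner and marker genes listed. Other smooth muscle markers had lower r, at 0.58 for CNN1, 0.26 for DES, 0.09 for ACTA2 and 0.01 for MYH11. The other endothelial markers tested were at 0.27 (TEK), 0.19 (KDR) and -0.04 (PECAM1).

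**Figure D3:**
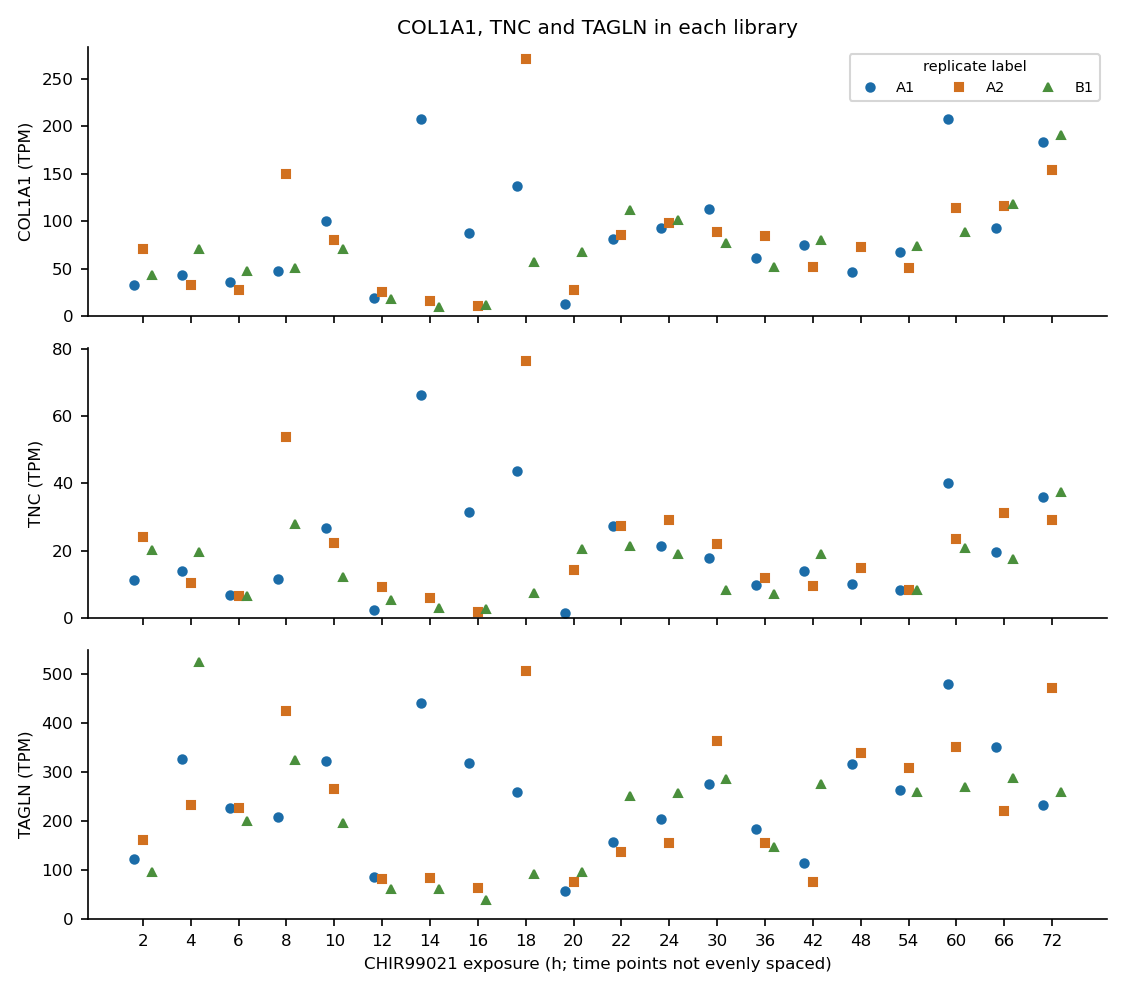
TPM of COL1A1, TNC and TAGLN on the y axes in each library, by hours of CHIR99021 on the x axis, with the marker showing the replicate label. At 14 h the A1 library stands at 207, 66.3 and 442 TPM, above the other libraries of that time in all 3 panels.

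Between the windows COL1A1 was at 27.1, 45.6 and 149.8 TPM (lowest, median, highest) early and 50.4, 115 and 208 TPM late. The windows overlap, and the late minus early rise was 1.18 (SE 0.32, adjusted p = 0.00372). It was called with each of the 24 libraries of these windows left out in turn, at 1.09 to 1.31. For 54 h against 6 h alone COL1A1 was not called (0.80, adjusted p = 0.647). Its change over the course was not called without the B1 libraries (adjusted p = 0.105). Of the smooth muscle markers, ACTA2 rose (2.80, adjusted p = 1.0e-06) of 5 tested, and the sum of the list was 115 to 559 TPM early and 286 to 577 TPM late. Fibroblast and mesenchyme markers were mixed, with LUM and THY1 higher and PDGFRA and PRRX1 lower of 7 tested. Their sum was 24.0 to 129 TPM early (median 58.98) and 34.0 to 354 TPM late (median 59.7). The late highest value was 72 h A2, 1 of the 3 libraries with fewest genes, and the highest at 54, 60 and 66 h was 91.2 TPM. DCN, which codes for decorin, was listed at 0 in 12 of 12 late libraries. The part of these markers in the fibrillar results was not tested. COL3A1, which accompanies type I collagen in distensible tissues, stayed low. It was at 0 in 9 of 12 early libraries and at a median of 1.96 TPM late (1.47, adjusted p = 5.7e-06). Its highest early library had 0.26 TPM. COL3A1 thus passed the filter only through later hours, which favours the call of a rise. COL27A1 (median 16.1 TPM early and 17.7 TPM late) and COL24A1 (highest library 1.97 TPM) had late minus early differences of 0.03 and 0.33 that did not pass the threshold.

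**Figure D4:**
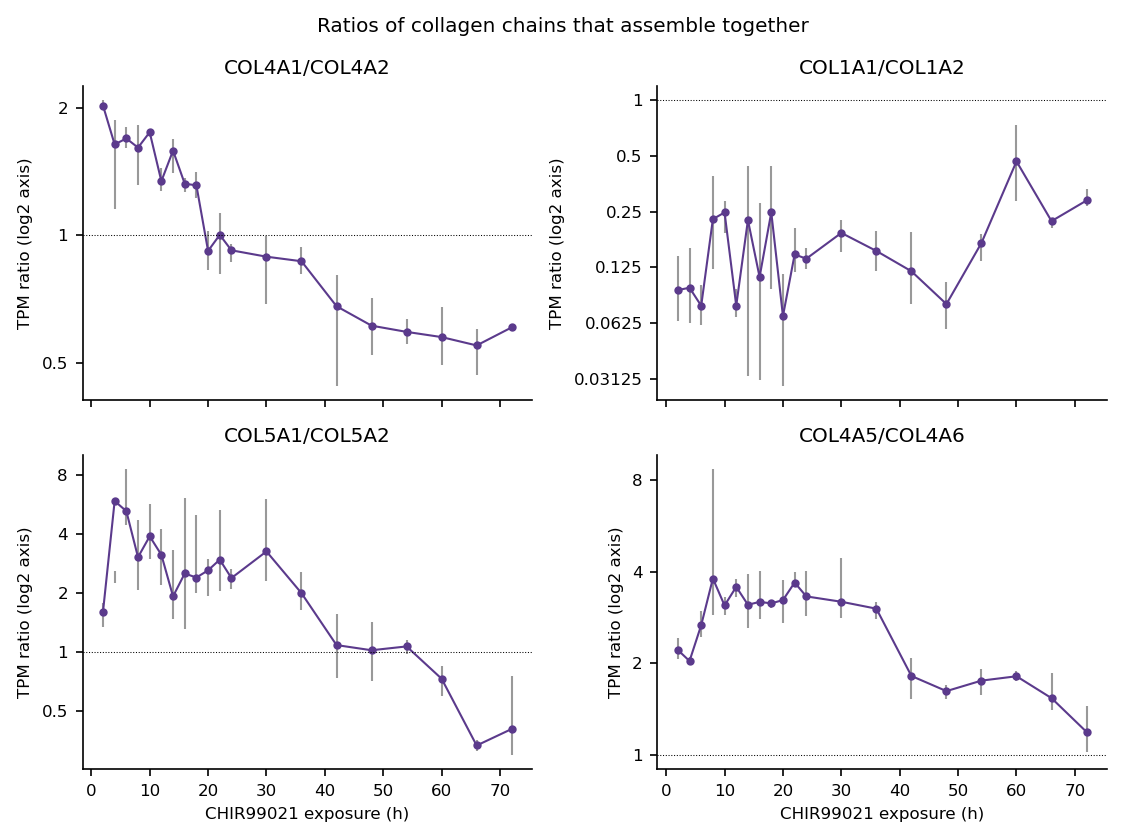
Ratio of TPM between chains that assemble together, on a log2 axis, against hours of CHIR99021; points are ratios of time-point means, bars run from the lowest to the highest library, and the dotted line marks equal levels. COL4A1/COL4A2 falls from 2.02 at 2 h to 0.61 at 72 h, COL1A1/COL1A2 stays below 1, and the 4 h bar of COL5A1/COL5A2 leaves out B1, where COL5A2 is at 0, and lies below its point.

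Fibril-associated collagens have short triple helices with breaks and decorate fibrils. COL14A1, found on type I fibrils, was at 69.7, 109 and 146 TPM (lowest, median, highest) early, 27.7, 44.2 and 90.9 TPM in the first day and 27.4, 81.5 and 163 TPM late. Its time course was a trough: the 30 h libraries had 29.9, 16.2 and 16.3 TPM and the 60 h libraries 84.3, 73.5 and 99.3 TPM. It fell by 1.12 in the first day (SE 0.14, adjusted p = 2.7e-08) and rose by 0.66 from there to late (adjusted p = 5.6e-04). Its late minus early call (-0.46, adjusted p = 0.00952) therefore depended on the hours, with 0.11 for 66 and 72 h against 2 and 4 h. COL12A1, also found on type I fibrils, did the opposite: it rose by 0.83 in the first day (adjusted p = 0.00665) and fell by 1.54 after it (SE 0.23, adjusted p = 1.4e-06). It was at 10.3, 19.8 and 39.9 TPM early, 13.5, 38.2 and 66.5 TPM in the first day and 4.94, 11.7 and 25.4 TPM late. The first-day rise was not called without the A2 libraries (adjusted p = 0.117), and the late minus early fall (-0.72, adjusted p = 0.0131) not without the A1 or without the A2 libraries (adjusted p = 0.102 and 0.0936).

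The type IX chains COL9A1, COL9A2 and COL9A3, which coat type II fibrils, were at similar levels early, with medians of 17.7, 20.4 and 10.7 TPM. In the first day the medians were 13.7, 4.63 and 1.62 TPM and late 14.2, 7.44 and 8.32 TPM. COL9A2 fell by 1.73 in the first day (adjusted p = 4.0e-04) and COL9A3 by 2.38 (adjusted p = 4.7e-06), and COL9A3 rose again by 2.12 after it (adjusted p = 5.5e-05). COL9A1 did not pass the threshold in these windows (-0.41 late minus early, adjusted p = 0.318). The late minus early fall of COL9A2 (-1.19, adjusted p = 0.011) was not called without the A1 libraries (adjusted p = 0.171). Nor was its first-day fall (adjusted p = 0.0507). For 30 h against 6 h alone, COL9A2 and COL9A3 were not called (adjusted p = 0.0588 and 0.623). COL16A1 fell from a median of 6.00 to 1.11 TPM (-1.48, adjusted p = 2.8e-04) and COL21A1 from 6.78 to 1.77 TPM (-1.42, adjusted p = 0.00274). COL21A1 was high at 2 h, with 14.7, 13.5 and 13.9 TPM. COL22A1, known from the junctions between muscle and tendon, had medians of 27.1, 29.9 and 33.0 TPM in the 3 windows and a late minus early difference of 0.31 (adjusted p = 0.0923). It changed over the course (adjusted p = 5.0e-04), with its highest means between the windows, at 53.4 TPM at 42 h and 50.25 TPM at 48 h. Its highest library was 42 h B1 (73.5 TPM), 1 of the 3 with fewest genes, and without those 3 it was called over the course as well (adjusted p = 0.00101), but not without the A1 or without the A2 libraries (adjusted p = 0.0542 and 0.0784).

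**Figure D5:**
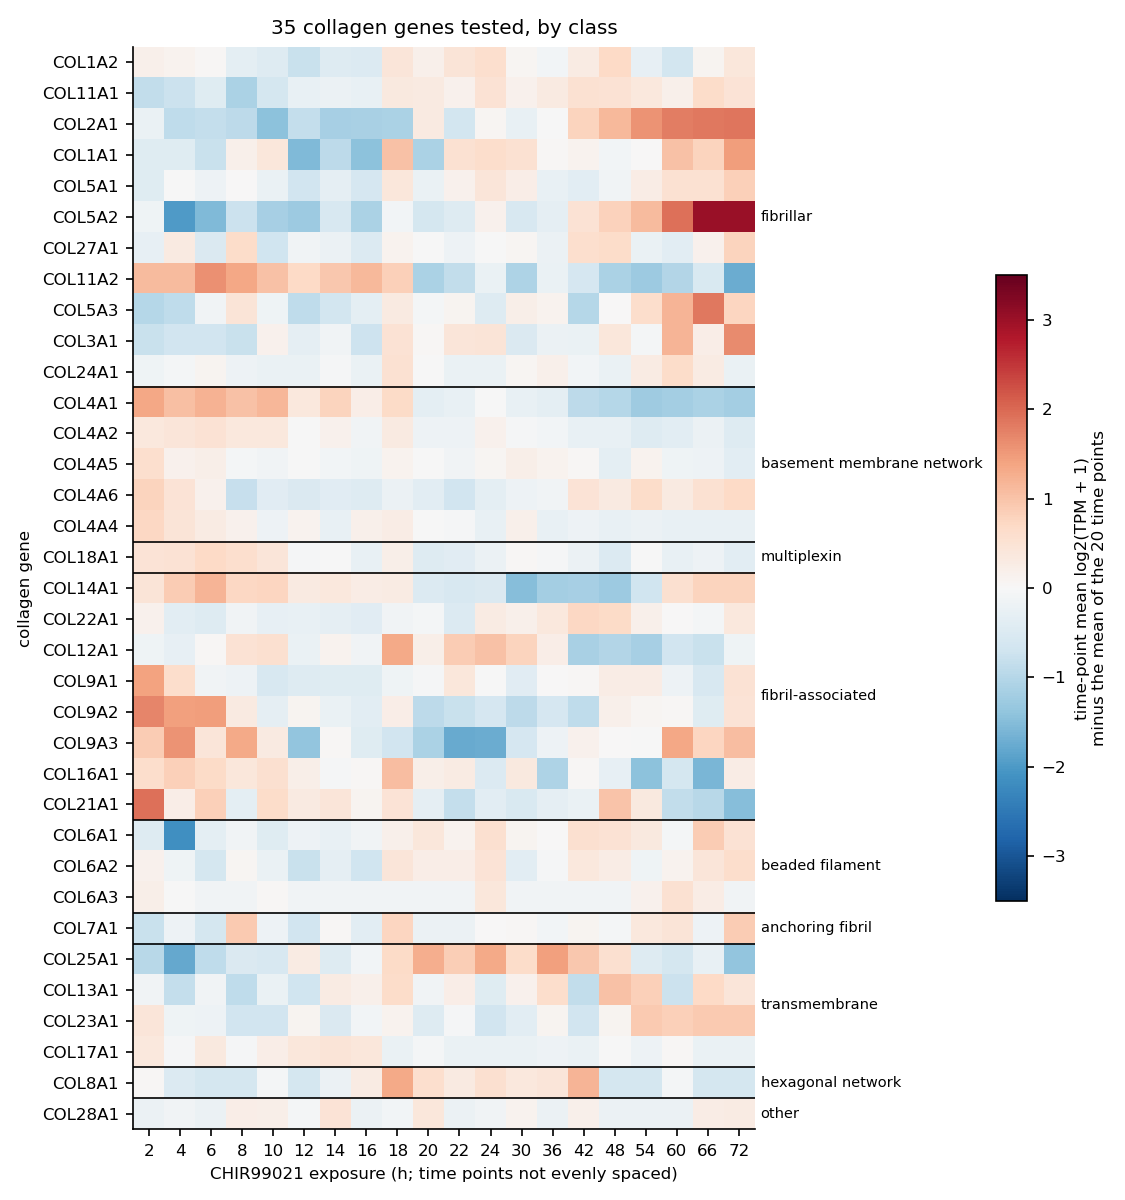
Time-point mean log2(TPM + 1) of the 35 collagen genes tested (y axis, by class), minus each gene's mean over the 20 time points, against hours of CHIR99021 (x axis); red is above and blue below the gene's own mean. COL2A1 and COL5A2 turn red late, COL4A1 and COL11A2 turn blue, and COL14A1 is blue in the middle.

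Type VI collagen, which forms beaded filaments near cell surfaces, is built from COL6A1, COL6A2 and a further chain, in most tissues COL6A3. COL6A1 was at 0, 36.1 and 52.2 TPM (lowest, median, highest) early and 35.5, 60.5 and 100.7 TPM late, a rise of 1.19 (SE 0.29, adjusted p = 0.00124), or 0.86 without the 3 libraries with fewest genes. COL6A2 was at medians of 21.3 and 28.6 TPM (0.39, adjusted p = 0.125). COL6A3 was above 0 in 9 of 59 libraries, with a highest value of 1.87 TPM. The alternative chains COL6A5 and COL6A6 were above 0 in 7 and 13 libraries and below 1 TPM in all 59. Means over the libraries were 50.9 TPM for COL6A1, 25.0 TPM for COL6A2 and 0.12 TPM for COL6A3.

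Transmembrane collagens span the cell membrane, and their outer part can be shed. COL25A1, known from amyloid plaques and from the innervation of muscle, was at 0, 6.11 and 17.3 TPM (lowest, median, highest) early, 12.5, 27.9 and 55.1 TPM in the first day and 1.59, 8.69 and 14.5 TPM late. It rose by 2.06 (SE 0.27, adjusted p = 5.8e-08) and then fell by 1.70 (adjusted p = 4.5e-06), and the early and late windows overlap. Without the 3 libraries with fewest genes these differences were 1.82 and -1.82. COL23A1 rose late from a median of 0.14 to 2.46 TPM (1.04, adjusted p = 0.00729), a call that was lost without the B1 libraries (adjusted p = 0.159). COL13A1, of the neuromuscular junction, and COL17A1, of hemidesmosomes, did not pass the threshold from early to late (0.78 and -0.32, adjusted p = 0.121 and 0.107). COL17A1 passed over the course (adjusted p = 0.012), at 1.14 TPM or less in every early library and at 0 in 10 of 12 late ones. Its 4 libraries at 1 TPM or more were all at 16 h or earlier, so COL17A1 passed the filter only through those hours. Of the remaining classes, COL7A1, of the anchoring fibrils of skin, was at medians of 4.48 and 8.70 TPM (0.54, adjusted p = 0.227). COL8A1, of a hexagonal network, rose in the first day to a median of 1.68 TPM (1.12, adjusted p = 0.0145) and was at 0 in 11 of 12 late libraries. That first-day call was lost without any 1 replicate label (adjusted p = 0.073 to 0.0831). COL28A1 was above 0 in 13 of 59 libraries, with a highest value of 2.51 TPM.

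In the first day 19 of 35 collagen genes changed, against 20.0% of all genes tested, with 9 higher (10.5% of all genes) and 10 lower (9.45%). From the first day to late 15 changed, against 12.5%, with 7 higher (5.43%) and 8 lower (7.08%). These comparisons share the first-day libraries, so the windows are not independent. Without overlap, 3 were higher (COL2A1, COL4A6 and COL5A2) and COL4A1 was lower from the first day to late, against 0.307% and 0.673% of all genes tested. From early to the first day the numbers without overlap were 0 higher and 0 lower (0.680% and 0.529% of all genes tested). Levels also moved inside the first day. At 16, 18, 20 and 22 h the mean of COL4A1 was 324 ± 67, 440.0 ± 88.2, 215 ± 33 and 237.5 ± 75.2 TPM (SD, n = 3 each). COL18A1 was at 389 ± 59, 527 ± 54, 339 ± 50 and 348 ± 33 TPM at these hours. For both genes the 18 h mean was thus above those of 16 and 20 h. The COL4A1 libraries of 16 and 18 h overlap (390 TPM in 16 h B1, 346 TPM in 18 h B1), and its 14 h mean was higher, at 473.5 TPM. The COL18A1 libraries of 16 and 20 h overlap. COL2A1 was at 50.1 ± 18.1, 48.6 ± 0.66, 133 ± 27 and 69.7 ± 17.7 TPM, so that 20 h was a local high with lower values at 22 h. The libraries of 18 and 20 h did not overlap for these 3 genes. These hours were picked after their values were seen, and the differences between them were not tested.

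The enzymes that modify, fold, cut and crosslink collagen were followed from lists of genes outside the family. Hydroxylation of proline and lysine stabilises the helix and prepares its crosslinks. Of 11 hydroxylases and glycosyltransferases tested, 7 rose from early to late and 0 fell, against 14.3% and 15.8% of all genes tested. P4HA1, a catalytic subunit of prolyl 4-hydroxylase, was at 46.1, 121 and 302 TPM (lowest, median, highest) early, 282, 401 and 459 TPM in the first day and 168, 576 and 784 TPM late (2.02, SE 0.11, adjusted p = 3.5e-20). PLOD2, a lysyl hydroxylase, rose from a median of 61.9 to 207 TPM (1.62, adjusted p = 1.6e-13). P4HA2 rose by 1.82, PLOD1 by 1.08, GLT25D2 by 0.86, GLT25D1 by 0.41 and LEPRE1 by 0.32.

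At 30 and 54 h, P4HA1 and PLOD2 were lower than at the neighbouring times, 2 of the 11 genes on the list, while 0 were higher and 9 did not pass the threshold. P4HA1 was at 452, 447 and 459 TPM at 24 h, 90.5, 88.1 and 132 TPM at 30 h and 430, 476 and 494 TPM at 36 h. It was at 412 and 459 TPM at 48 h, at 210, 190 and 168 TPM at 54 h and at 453, 534 and 539 TPM at 60 h. At both times all libraries lay below those of the neighbouring times. For 30 and 54 h against 24, 36, 48 and 60 h the difference was -1.74 for P4HA1 (adjusted p = 9.7e-14) and -1.61 for PLOD2 (adjusted p = 7.5e-10). CRTAP, which codes for a partner of prolyl 3-hydroxylase, differed by -0.50 (adjusted p = 0.00117). Of the 35 collagen genes 1 passed in this comparison, against 14.3% of all genes tested (9.77% higher and 4.53% lower): COL14A1 was lower (-0.49, adjusted p = 0.0497), and this call was lost under 7 of 12 other settings. The median was -0.09 for the collagen genes and 0.05 for all genes. At an unadjusted p under 0.05, limma gave 5 collagen genes, 2 higher and 3 lower. The share of all genes at that unadjusted level was not counted, and the shares above are for the adjusted p. Without overlap 0 were higher and 0 lower, against 3.01% and 0.810% of all genes tested.

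Folding and export genes had 0 of 11 past the threshold from early to late in limma, against 30.1% of all genes tested. At an unadjusted p under 0.05 there were 4, and the share of all genes at that level was not counted. SERPINH1, the collagen chaperone HSP47, differed by 0.33 (adjusted p = 0.0586). Of 12 genes of procollagen processing and crosslinking, 6 rose and 0 fell, against 14.3% and 15.8% of all genes tested. LOXL3, a lysyl oxidase, rose from a median of 11.5 to 44.6 TPM (1.93, adjusted p = 1.5e-05), and LOX from 0 to 2.59 TPM (1.50, adjusted p = 2.5e-05). The highest early library of LOX had 0.91 TPM, so LOX passed the filter only through later hours, which favours the call of a rise. PCOLCE, an enhancer of the C-propeptide protease, rose by 1.73, ADAMTS2 and ADAMTS3, N-propeptide proteases, by 1.05 and 1.03, and BMP1, the C-propeptide protease, by 0.75. Of 4 collagenases tested, MMP2, a gelatinase that degrades type IV collagen, rose from a median of 11.1 to 62.4 TPM (2.35, adjusted p = 5.0e-07).

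Of 8 collagen receptors, DDR1, a receptor tyrosine kinase activated by collagen, rose from a median of 85.9 to 163 TPM (0.98, adjusted p = 6.9e-10). The integrin chain ITGA2 fell by 1.24 (adjusted p = 7.0e-05), from a median of 20.9 to 9.02 TPM. ITGA10 fell by 0.40 (adjusted p = 0.0393) at values near 0. Its early median was 0.23 TPM, with a highest library of 1.67 TPM, and 10 of 12 late libraries were at 0. Of 12 other matrix partners, 4 rose and 4 fell, against 14.3% and 15.8% of all genes tested. FN1 rose by 0.85 (adjusted p = 1.6e-04), FBN1, which codes for fibrillin, by 0.94 (adjusted p = 2.5e-07), LUM by 2.49 and POSTN by 1.04 (adjusted p = 0.0473). SPARC, a collagen-binding matrix protein, fell by 0.30 (adjusted p = 4.2e-04), beside AGRN, HSPG2 and NID1. Neuron markers rose over the same windows in 5 of 6 genes, against 14.3% of all genes tested. Their summed level was 187 to 336 TPM early and 218 to 468 TPM late, and their part in the collagen results was not tested.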

How the data were processed

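Bulk mRNA was measured in 59 libraries. Per the labels' protocols, oligo-dT mRNA was made into ligation-mediated libraries and read as single reads. The deposited values are TPM per gene symbol; the submitters' processing notes name CASAVA 1.8.2, Bowtie 0.12.8, RSEM 1.2.3 and hg19. Read depth and strandedness are not given in the sources used here. TPM was used as deposited, as log2(TPM + 1), for 15305 genes at 1 TPM or more in at least 3 libraries.

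limma 3.58.1 with an intensity trend (R 4.3.3) was fitted to all genes over all 59 libraries, with Benjamini-Hochberg adjustment and a threshold of 0.05. The tests were a spline over hours, contrasts of the 3 windows, and 30 and 54 h against their neighbours. The test against the curve, the chain ratios (Python 3.11.15, scipy 1.17.1) and the counts without overlap were added after the values were seen. The fit was tested on simulated data. Alternatives were another pseudocount, filters, scalings, splines and hours, a replicate block and left-out libraries.

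Members, lists and tests were chosen with earlier results of these data known. Per-library values are given for collagen genes with a time-point mean of at least 10 TPM or a called difference of at least 1. Other genes are named from lists of enzymes, partners and markers. Endothelial markers (2 higher, 1 lower of 4 from early to late), neural crest markers (2 higher, 2 lower of 5) and neural progenitor markers (5 higher, 2 lower of 8) were also checked. In that comparison 14.3% of all genes tested were higher and 15.8% lower. Promoter letters are from RefSeq on GRCh38.p14. The expression table uses another build, and none of its coordinates were used.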

Additional observations from a re-analysis of the deposited data

How the results depend on the processing

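Of 2099 single-gene results under 21 alternative settings, 1940 kept their side of the threshold, 133 lost the call and 23 gained one. Changes of sign without a call in either fit are among the 1940, and the tests over the course and against the curve have no sign. With a call in either fit, 3 changed sign. The 3 were COL14A1 from early to late (0.11 for 66 and 72 h minus 2 and 4 h, and 0.0227 without the 6, 30 and 54 h time points) and COL4A6 (-0.0129 for 66 and 72 h minus 2 and 4 h). The 21 collagen genes called from early to late became 9 for 54 h against 6 h and 17 to 20 without 1 replicate label. Of all genes tested, 30.1% were called in the main fit, 6.95% for 54 h against 6 h and 19.8% to 28.3% without 1 label. The 19 of the first day became 5 for 30 h against 6 h and 12 to 14 without 1 label. Here the share of all genes went from 20.0% to 3.88% for 30 h against 6 h and to 10.7% to 16.1% without 1 label. The 15 from the first day to late became 9 with only 66 and 72 h compared with 22 and 24 h. They became 3 with 54 h compared with 30 h, and 11 without any 1 label. The share of all genes, 12.5% in the main fit, became 9.79%, 1.19% and 6.08% to 11.7% in these fits. Without 1 label the 29 over the course became 21 to 22, and the share of all genes went from 36.8% to 21.6% to 35.4%. Single hours and left-out labels use fewer libraries by construction. For 30 and 54 h against their neighbours, the 1 call became 0 with a pseudocount of 0.1, without the filter and for each hour alone. It also became 0 without any 1 label. The count was 2 with quantile normalization, median-ratio scaling and without the 3 libraries with fewest genes. The share of all genes was 4.5% to 12.9% in the fits with 0 calls and 14.2% to 24.5% in those with 2, against 14.3%. The 3 genes beyond the curve became 5 with median-ratio scaling and 7 without those 3 libraries. They became 6 and 1 with splines of 3 and 6 degrees of freedom, and 1 to 2 without 1 label. In these fits the shares of all genes were 12.4%, 24.3%, 15%, 9.09% and 2.26% to 6.06%, against 12.3% in the main fit. The cause of these changes was not tested. The 7 chain ratios past the threshold became 6 with a pseudocount of 0.1 and without any 1 label, and 8 without those 3 libraries.

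No general pairing of libraries by the labels A1, A2 and B1 was seen. Over 551 pairs of time-point deviations with the same label the median r was 0.005, with 8 above 0.1, and with different labels it was -0.002. A median over all times cannot exclude that libraries of some times shared a culture or batch. With the replicate block 29, 21, 18, 15, 1 and 3 genes were called over the course, from early to late, in the first day, from there to late, at 30 and 54 h and beyond the curve. The shares of all genes were 36.7%, 30.1%, 19.9%, 12.5%, 14.1% and 11.9%. The 1 call lost was COL2A1 in the first day (adjusted p = 0.0551). Depth is unknown for TPM, and a gene listed at 0 may be expressed below what was detectable.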
